A study of Homo sapiens with 6 samples.

Results

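The phagocyte NADPH oxidase is described here through 5 genes, *CYBB*, *CYBA*, *NCF1*, *NCF4* and *CYBC1*, in an acute myeloid leukemia (AML) cell line treated with an inhibitor of the WNK kinases. The members were the rows whose symbol equals one of these names. They make up 5 of the 20348 rows of the deposited gene table. RNA-seq was made from MV4-11, an established human AML line of myelomonocytic kind that carries a KMT2A fusion and an internal tandem duplication of FLT3. The 3 Ctrl samples were labelled untreated, and the 3 WNK463 samples received 1 μM of WNK463, a small molecule that inhibits the WNK kinases, for 48 h. The study calls the control blank, with no solvent named, so an effect of a solvent and an effect of WNK463 cannot be told apart. The labels do not say whether the samples of a group were separate cultures, and p-values then measure only the spread between these samples, which may be technical.

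Phagocytes use this enzyme to turn oxygen into superoxide during the respiratory burst that kills ingested microbes. Its electron path lies in flavocytochrome b558, a membrane heterodimer of *CYBB* (gp91phox, also called NOX2) and *CYBA* (p22phox), in which each partner stabilises the other and heme must be inserted. *CYBC1* encodes a chaperone of the endoplasmic reticulum needed for the heterodimer to mature. The cytosolic subunits, among them *NCF1* (p47phox, the organizer that docks on *CYBA*) and *NCF4* (p40phox, which binds a phosphoinositide of the phagosome), join the membrane part together with a Rac GTPase when the cell is stimulated. Loss of any of these 5 genes is known to impair the burst and to cause chronic granulomatous disease.

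Total counts lay between 14915745 and 17411780 per sample. The unit of level is CPM, the counts in each 1000000 of a library after TMM scaling, which is a scaling that assumes most genes do not change, or else the deposited TPM, which corrects for gene length. A gene passed the test at an adjusted p below 0.05 from edgeR's quasi-likelihood test, adjusted over the 11973 genes tested. All 8 markers of a myelomonocytic AML line, including *CD33*, *FLT3* and *HOXA9*, were above the filter on low counts. The markers of red cells summed to 0 CPM in every library, and those of T cells reached at most 0.0638 CPM. TMM and total-count scaling differed by 0.152 on the log2 scale in the median change of all genes tested, so small changes of the members and partners are given under both.

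*CYBB* and *NCF1*, the member nearest to absence and the member that rose most, both hold the letters GAGGAA, the core that the myeloid factor PU.1 binds, on the opposite strand close to their starts. The 30 bases around it are shown from RefSeq on GRCh38.p14, 5′ to 3′ on the plus strand, on which both genes lie. Capitals mark the 6 bases whose opposite strand reads GAGGAA.
CYBB, chrX:37779999-37780028: tgctgttttcatTTCCTCattggaagaaga
NCF1, chr7:74773954-74773983: gacaaaagcgacTTCCTCtttccagtgcat
The capitals lie from base -48 to -43 before the RefSeq start of *CYBB*, and from -45 to -40 before that of *NCF1*. GENCODE 29 sets both starts further upstream, so the capitals begin 0 bases after its start of *CYBB* and 4 bases after its start of *NCF1*. Of all 35116 RefSeq windows of 250 bases before a start, 23.6% hold GAGGAA on either strand. Such a match is a description of the letters and not of binding. RefSeq windows were matched for 4 of the 5 members, without *NCF4*. The windows of *CYBA* and *CYBC1* had no match to these letters. The *CYBA* window instead held GGGCGG, the core of a GC box bound by Sp1-type factors, at 6 places over both strands, of which 1 neighbouring pair shares a base, while 42.6% of all windows hold at least 1 and those of *CYBB*, *NCF1* and *CYBC1* hold 0. GENCODE 29 sets the start of *CYBA*, too, further upstream, at base 88651152. Of the 6 GC boxes, only that from -130 to -125 before the RefSeq start also lies before the GENCODE start. One of the 6 is shown because it lies at nearly the same distance before the RefSeq start, from -48 to -43. It lies after the GENCODE start. This GC box is in capitals, and the letters are those of the minus strand, on which *CYBA* lies. The box from -37 to -32 also lies within these bases, in small letters.
CYBA, chr16:88651084-88651113: ctggggggctggGGGCGGggcctgggcggg

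Per length, the 5 RNAs spanned more than 3 orders of magnitude. In Ctrl, *CYBA* was highest with 889 ± 75.1 TPM, followed by *NCF4* with 255 ± 5.86, *NCF1* with 199.9 ± 1.95 and *CYBC1* with 138 ± 4.25 TPM (SD, n = 3 per group). *CYBB* had 0.394 ± 0.22 TPM. With WNK463, *NCF1* passed *NCF4* in this order, with 598 ± 16.3 against 343 ± 6.49 TPM. *CYBA* stayed first with 684 ± 46.2 TPM, *CYBC1* had 133 ± 3.25 and *CYBB* 0.187 ± 0.057 TPM (SD, n = 3 per group). No neighbours in either order overlapped in their 3 samples. The mean TPM of *CYBA* in Ctrl exceeded that of 99.3% of all rows in the table, and that of *CYBB* exceeded 42.1%.

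**Figure D1:**
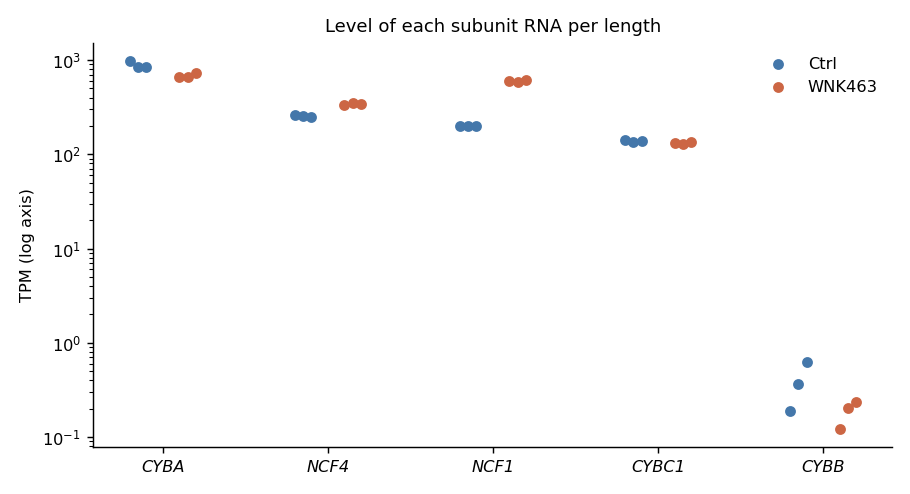
TPM (log axis) of the 5 subunit RNAs in each of the 3 Ctrl and 3 WNK463 libraries, 1 point per library. *CYBB* lies between 0.123 and 0.625 TPM and the other 4 lie between 129.9 and 975.4 TPM, and *NCF1* moves from below *NCF4* in Ctrl to above it with WNK463.

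*CYBB* (ENSG00000165168, chromosome X from 37780011 to 37813461, plus strand, GRCh38) encodes the catalytic subunit, which carries the electrons. It had 7, 12 and 20 counts in the Ctrl samples and 4, 7 and 4 counts in the WNK463 samples. These counts stood at 0.426, 0.823 and 1.22 CPM in Ctrl and at 0.242, 0.407 and 0.255 CPM with WNK463, where a count of 3 corresponds to 0.174 to 0.206 CPM. In CPM the groups did not overlap, but Ctrl replicate 1 and WNK463 replicate 2 were close, with 7 counts each. Of this pair the WNK463 sample had the smaller total count, so only the TMM factors kept the groups apart. In TPM the groups did overlap. *CYBB* fell below the filter on low counts and was not tested with the other genes. The mean CPM with WNK463 was 0.366 times that in Ctrl, from 39 counts against 15 in all. On these CPM values an exact two-sided permutation test over samples gave p = 0.10, the smallest that 3 against 3 allow. This test was not run on TPM or on CPM from total counts, in which the groups overlapped. When the filter was lifted, the log2 fold change was -1.43 (SE 0.61, adjusted p = 0.041 from edgeR). In fits with the filter this call held without Ctrl replicate 1 (-1.74, adjusted p = 0.0064 from edgeR) and without WNK463 replicate 2 (-1.70, adjusted p = 0.0278 from edgeR). It was lost without WNK463 replicate 1 (-1.28, adjusted p = 0.070 from edgeR) and without WNK463 replicate 3 (-1.32, adjusted p = 0.060 from edgeR). Without Ctrl replicate 2 or 3 the gene was again below the filter. Without Ctrl replicate 3, which had the most counts, the log2 ratio of mean CPM was -1.05 in place of -1.45.

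*CYBA* (ENSG00000051523, chromosome 16 from 88643283 to 88651152, minus strand), the partner of *CYBB* in the membrane and the docking site of *NCF1*, fell. It had 354.8, 298.5 and 305.7 CPM in the Ctrl samples and 205.1, 205.9 and 228.3 CPM in the WNK463 samples. Ctrl replicate 1 was the highest, and every WNK463 sample lay below every Ctrl sample. The means were 319.7 ± 30.7 and 213.1 ± 13.2 CPM (SD, n = 3 per group), which equals a log2 fold change of -0.59 (SE 0.06, adjusted p = 1.71e-07 from edgeR). With total-count scaling the log2 fold change was -0.43 and still passed.

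*CYBC1* (ENSG00000178927, chromosome 17 from 82442589 to 82450829, minus strand), the chaperone of the heterodimer, had 155, 141.1 and 143 CPM in Ctrl and 122.6, 118.7 and 127.8 CPM with WNK463. The 3 WNK463 values lay below the 3 Ctrl values. The log2 fold change was -0.25 (SE 0.05, adjusted p = 0.000425 from edgeR). This call depended on the scaling: with total counts the log2 fold change was -0.10 (adjusted p = 0.0923 from edgeR). In TPM the means were 138 and 133, and the samples of the groups overlapped. Of its 7234 annotated exon bases, 57 are shared with HEXDC on the opposite strand, where reads cannot be told apart without strand information.

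*NCF1* (ENSG00000158517, chromosome 7 from 74773962 to 74789315, plus strand), the organizer subunit that is phosphorylated when the oxidase is switched on, rose most of the 5 members. It had 144.1, 139.6 and 141.4 CPM in the Ctrl samples and 369.8, 357.3 and 383.2 CPM in the WNK463 samples. The lowest WNK463 sample was far above the highest Ctrl sample, and the replicates were close to each other. The means were 141.7 ± 2.22 and 370.1 ± 13.0 CPM (SD, n = 3 per group), which is 2.61-fold or a log2 fold change of 1.38 (SE 0.05, adjusted p = 6.57e-14 from edgeR). By p-value *NCF1* ranked 42 of the 11973 genes tested. With total counts the log2 fold change was 1.54.

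The *NCF1* count is uncertain in its origin, since *NCF1B* and *NCF1C* on the same chromosome are pseudogene copies of nearly the same sequence. Of the 1297 stretches of 100 bases in the longest protein-coding *NCF1* transcript of GENCODE 29, 837 also occur letter for letter in an annotated transcript of *NCF1B* or *NCF1C*, which is 64.5%. With stretches of 50 bases the share was 84.5%, and with 150 bases it was 45.4%. The read length and the treatment of reads that match several genes are not given in the sources used here. The copies were not analysed here, and how many of their reads the *NCF1* count holds was not tested.

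*NCF4* (ENSG00000100365, chromosome 22 from 36860988 to 36878015, plus strand), the subunit that ties the cytosolic complex to the phagosome membrane, rose slightly. It had 198.3, 194 and 187.7 CPM in Ctrl and 226.7, 231.9 and 230 CPM with WNK463. The groups did not overlap, and the WNK463 samples lay within a narrow range. The means were 193.3 ± 5.36 and 229.5 ± 2.63 CPM (SD, n = 3 per group), which equals a log2 fold change of 0.25 (SE 0.05, adjusted p = 0.00011 from edgeR). With total counts the log2 fold change was 0.40. The antisense gene NCF4-AS1 shares 27 of the 1759 annotated exon bases of *NCF4*.

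**Figure D2:**
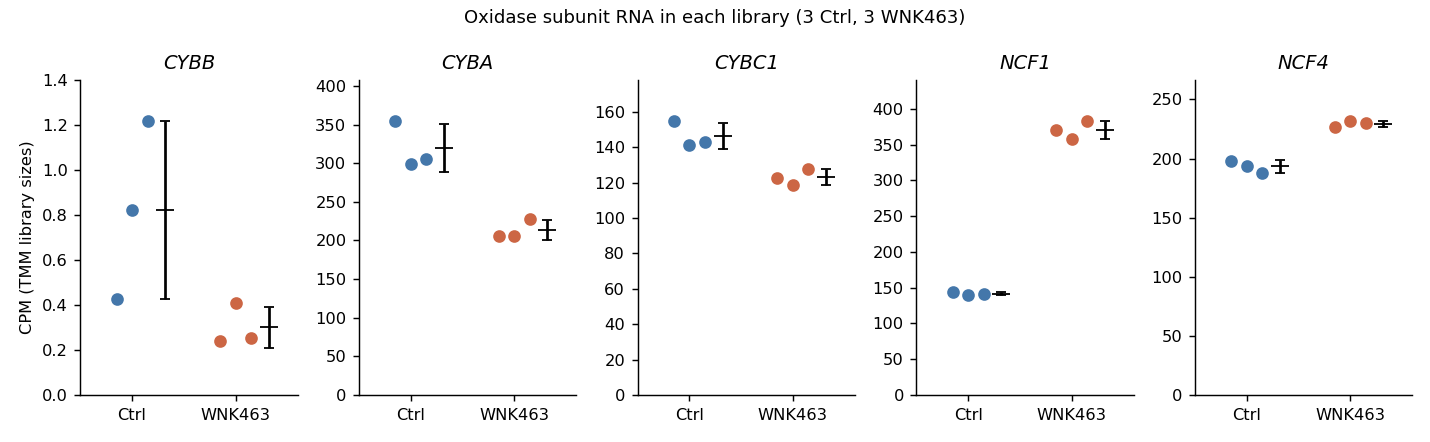
CPM of each subunit RNA in the 3 Ctrl and 3 WNK463 libraries, 1 point per library, with the mean and SD (n = 3) as black bars; each panel has its own linear axis from 0. *NCF1* rises from about 142 to 370 CPM, *CYBA* falls from 319.7 to 213.1 CPM, *NCF4* and *CYBC1* shift by less, and *CYBB* stays near or below 1 CPM.

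Of the 5 members, 4 were tested and all 4 passed, 2 higher and 2 lower. Over all genes tested, 70.8% passed, 35.5% higher and 35.3% lower, so a count of 4 of 4 does not set the members apart. With total counts 2 members were higher and 1 was lower, where 46.1% of all genes tested were higher and 26.1% lower. With a log2 change of 1 or more in size also required, 1 member was called, and it was higher, while 15.2% of all genes were called, 9.62% higher and 5.55% lower. In each of the 4 tested members the groups did not overlap in CPM, as in 73.5% of the genes tested. Those of *CYBB*, which was not tested, did not overlap in CPM but did in TPM. The median log2 fold change of the 4 tested members was -0.0016, beside 0.02 over all genes tested. In these bulk samples, fewer cells that express a gene and less of its RNA per cell cannot be told apart.

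Ratios within a library, which do not depend on the scaling between libraries, were compared for 3 pairs of members. *NCF4* had 1.29, 1.30 and 1.23 times the TPM of *NCF1* in the Ctrl samples, and 0.562, 0.600 and 0.561 times with WNK463. The order of these cytosolic subunits was thus opposite in the groups, and the ratio changed by -1.15 on the log2 scale (exact two-sided permutation p = 0.10, the smallest possible, and 0.30 when adjusted over the 3 ratios). *CYBA* had 5216, 2279 and 1360 times the TPM of *CYBB* in Ctrl, and 5323, 3234 and 3164 times with WNK463. These ratios overlapped between the groups, with a change in the log2 ratio of *CYBB* to *CYBA* of -0.58 (exact two-sided permutation test, p = 0.40, adjusted p = 0.40), and they rest on the few counts of *CYBB*. The change in the log2 ratio of *CYBB* to *CYBC1* was -0.90, also with overlapping groups (exact two-sided permutation test, p = 0.30, adjusted p = 0.40).

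**Figure D3:**
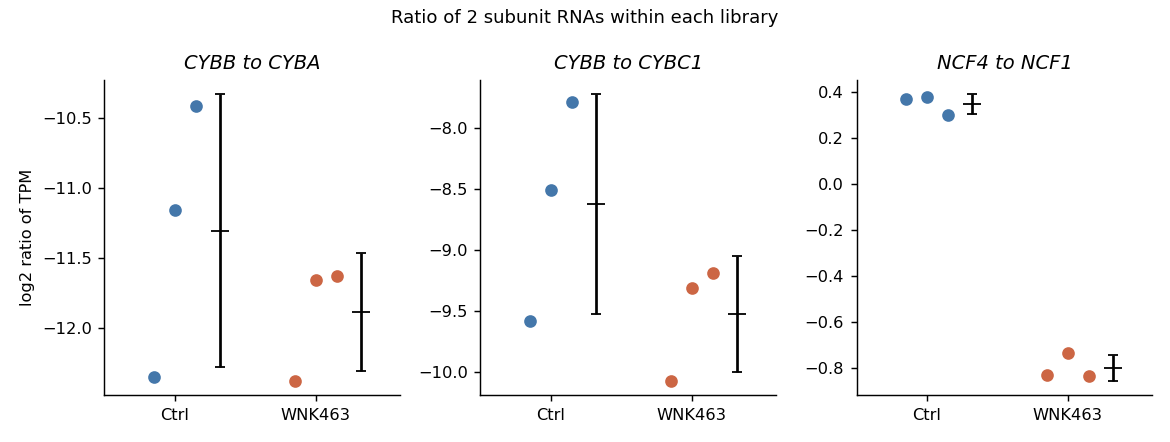
The log2 ratio of the TPM of 2 subunit RNAs within each library, 1 point per library, with the mean and SD (n = 3) as black bars. The *NCF4* to *NCF1* ratio lies between 0.30 and 0.38 in Ctrl and between -0.83 and -0.74 with WNK463, while both ratios with *CYBB* spread widely and overlap between the groups.

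Other catalytic subunits of the NADPH oxidase family were at or near 0. *NOX1*, *NOX3*, *NOX4*, *NOX5*, *DUOX1* and *DUOX2*, which make superoxide or hydrogen peroxide in other tissues, had 3 counts or fewer in every library, as did the DUOX maturation factors *DUOXA1* and *DUOXA2*. Of these 8 genes, 4 had 0 counts in all 6 libraries in the row with most counts, namely *NOX3*, *NOX4*, *DUOX1* and *DUOXA2*. *NOXO1*, the organizer of NOX1, reached 7 counts in 1 WNK463 library and at most 3 in the others. *NOXA1*, the activator that pairs with it, was the 1 gene of this list above the filter. It rose from 0.833 ± 0.313 to 1.97 ± 0.43 CPM (SD, n = 3 per group), which equals a log2 fold change of 1.24 (SE 0.35, adjusted p = 0.00419 from edgeR).

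Among 7 cytosolic partners and modulators, 2 were higher, 3 were lower and 2 did not pass, and with total counts 3 were higher and 2 lower. Over all genes tested, 35.5% were higher and 35.3% lower, or 46.1% and 26.1% with total counts. *RAC2*, the Rac GTPase that completes the oxidase in blood phagocytes, had 467.6 ± 3.68 CPM in Ctrl and 464.4 ± 10.4 with WNK463 (SD, n = 3 per group), which equals a log2 fold change of -0.01 (SE 0.04, adjusted p = 0.84 from edgeR). With total counts this value was 0.14 and passed, an amount close to the shift of all genes. *RAC1*, its relative in most cells, had a log2 fold change of -0.09, or 0.06 with total counts, and passed under neither. *ARHGDIA* and *ARHGDIB* encode the inhibitors that hold Rac GTPases in the cytosol. *ARHGDIA* fell from 437.4 ± 16.2 to 212.4 ± 13.7 CPM (SD, n = 3 per group), which equals a log2 fold change of -1.04 (SE 0.05, adjusted p = 8.98e-12 from edgeR), and *ARHGDIB*, the more abundant form in blood cells, fell by 0.35 on the log2 scale, or by 0.20 with total counts. *RAP1A*, a small GTPase found with flavocytochrome b558, rose from 84.2 ± 2.40 to 133.3 ± 2.80 CPM, a log2 fold change of 0.66. *HVCN1*, the proton channel that balances the charge moved by the oxidase, rose from 53.7 ± 1.29 to 77.6 ± 2.14 CPM (SD, n = 3 per group), which equals a log2 fold change of 0.53. *NRROS*, which lowers the amount of NOX2 protein, had a log2 fold change of -0.23 that did not pass with total counts (-0.08).

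**Figure D4:**
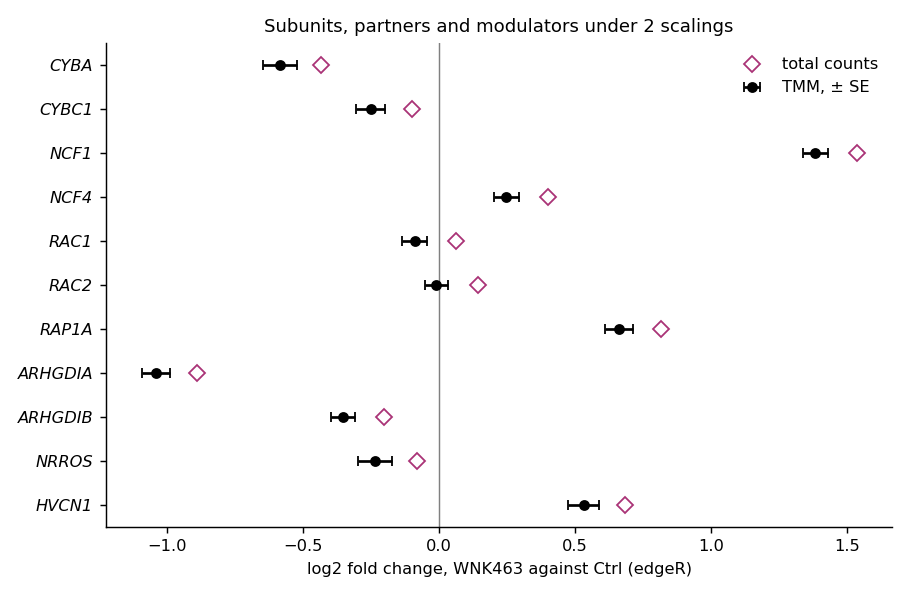
log2 fold change with WNK463 against Ctrl for the 4 tested subunits and 7 partners and modulators. Filled points with bars are TMM values ± SE, and open diamonds are values with total counts, which lie about 0.15 to the right of them. *NCF1* lies farthest to the right and *ARHGDIA* farthest to the left, while the 2 scalings of *RAC1* and *RAC2* fall on opposite sides of 0.

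The factors known to act on the *CYBB* promoter moved both ways. Of 9 genes, 2 were higher, 3 lower and 4 did not pass, with a median log2 fold change of 0.01. With total counts 6 were higher and 2 lower. Among all genes tested, 35.5% were higher and 35.3% lower, or 46.1% and 26.1% with total counts. *SPI1*, which encodes PU.1 and was picked out after its values were seen because of the letters shown above, had 218.1 ± 3.99 CPM in Ctrl and 218.4 ± 4.46 with WNK463 (SD, n = 3 per group). On the log2 scale *SPI1* changed by 0.00 (SE 0.05, adjusted p = 0.971 from edgeR), and 0.15 with total counts. *IRF8*, which acts with PU.1 in monocytes, fell from 781.8 ± 10.7 to 464.7 ± 6.32 CPM (SD, n = 3 per group), which equals a log2 fold change of -0.75 (SE 0.04, adjusted p = 3.81e-11 from edgeR). The interferon regulatory factors *IRF2* and *IRF1* rose by 0.26 and 0.21 on the log2 scale, or by 0.42 and 0.36 with total counts.

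Receptors that trigger or prime the burst were higher or did not pass. Of 10 genes, 8 were tested, 6 were higher and 0 lower, with a median log2 fold change of 0.59 beside 0.02 over all genes tested, of which 35.5% were higher and 35.3% lower. *FPR1*, the receptor for formylated bacterial peptides, rose from 0.488 ± 0.0613 to 3.33 ± 0.51 CPM (SD, n = 3 per group), which equals a log2 fold change of 2.76 at a low level. *ITGAM*, the alpha chain of complement receptor 3, rose by 1.25 on the log2 scale. *CSF2RA*, the receptor chain for the priming cytokine GM-CSF, rose by 1.07 and *FCGR2A*, an activating receptor for IgG, by 0.88. The receptors that did not pass were *FPR2* and *FCGR1A*, with log2 fold changes of 0.00 and -0.05, and *C5AR1* and *CLEC7A* were below the filter on low counts. With total counts 6 were again higher and 0 lower, where 46.1% of all genes tested were higher and 26.1% lower.

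Of 21 kinases and signal proteins upstream of the oxidase, 6 were higher, 9 lower and 6 did not pass, with a median log2 fold change of -0.03. With total counts 11 were higher and 7 lower. All genes tested had 35.5% higher and 35.3% lower, or 46.1% and 26.1% with total counts, and 70.8% passed with TMM. The counts thus do not set this list apart. *VAV3*, an exchange factor that loads Rac with GTP, fell from 34.5 ± 1.42 to 11.7 ± 1.55 CPM (SD, n = 3 per group), which equals a log2 fold change of -1.56 (SE 0.10, adjusted p = 1.29e-10 from edgeR). *PRKCA*, a protein kinase C that can phosphorylate p47phox, rose from 44.1 ± 2.65 to 94.4 ± 5.97 CPM (SD, n = 3 per group), which equals a log2 fold change of 1.10. The phospholipase genes *PLD1* and *PLA2G4A* went opposite ways, with log2 fold changes of -0.87 and 0.85.

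Among 8 enzymes of heme synthesis, which supply the prosthetic group of flavocytochrome b558, 2 were higher, 2 lower and 4 did not pass. With total counts 6 were higher and 2 lower. The shares over all genes tested, for this list and the next ones, were 35.5% higher and 35.3% lower. Under total counts they were 46.1% and 26.1%. *ALAS1*, the first and rate-limiting step outside red cells, rose by 0.57 on the log2 scale and *CPOX* by 0.60. *UROS*, a step in the middle of the path, fell by 0.73. Of 6 NADPH-supplying enzymes, 5 were tested and *PGLS* alone passed, with a log2 fold change of -0.34, or -0.19 with total counts, under which 3 were higher and 1 lower. Among 12 genes that handle superoxide and peroxide, 11 were tested, 2 were higher and 5 lower, but with total counts 6 were higher and 3 lower. *MPO*, the granule enzyme that makes hypochlorous acid from the peroxide, fell from 7.47 ± 0.423 to 1.31 ± 0.479 CPM (SD, n = 3 per group), which equals a log2 fold change of -2.50 (SE 0.23, adjusted p = 2.99e-08 from edgeR). *PRDX2* and *CAT*, which remove peroxide, fell by 0.56 and 0.55, and *SOD2*, the mitochondrial superoxide dismutase, rose by 0.39. With total counts these values were -0.41, -0.40 and 0.54.

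**Figure D5:**
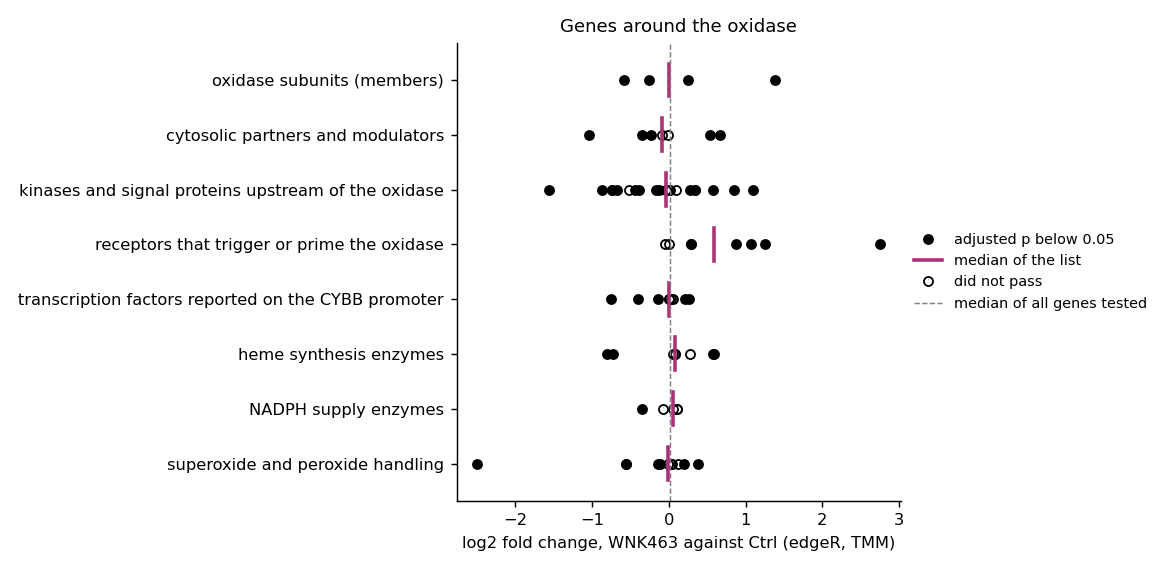
log2 fold change (edgeR, TMM) of the tested genes of 8 lists, 1 point per gene, filled where the adjusted p was below 0.05, with the median of each list as a purple bar and the median of all genes tested as a dashed line. The median of the receptor list is 0.59, with 6 of its 8 genes to the right of the dashed line, and the medians of the other 7 lists shown lie between -0.09 and 0.09.

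Markers of neutrophils and macrophages ranged from absent to well counted. Of 8 neutrophil markers, *FCGR3B*, *CEACAM8*, *LTF* and *MMP8* had 0 counts in all libraries, and the list summed to 330.5 to 350.7 CPM in Ctrl and 207.6 to 217.7 CPM with WNK463. *ELANE* had 226 CPM of this on average in Ctrl and 98.5 with WNK463, and *CSF3R* had 85.45 and 98.9. The 4 neutrophil markers tested split into 2 higher and 2 lower, where 35.5% of all genes tested were higher and 35.3% lower. *CSF3R* and *CAMP* were higher, with log2 fold changes of 0.21 and 3.08. *CAMP* had only 4 counts in all in Ctrl and 38 with WNK463. *ELANE* and *CXCR2* were lower, with log2 fold changes of -1.20 and -0.99. The 6 macrophage markers summed to 1.16 to 2.74 CPM in Ctrl and 3.37 to 4.92 CPM with WNK463, and *CD163* and *MRC1* had 1 count or fewer in every library. Of the 3 macrophage markers tested, 2 were higher and 0 lower. *MARCO* did not pass, with 1.76 CPM on average in Ctrl and 1.45 with WNK463 (log2 fold change -0.27, adjusted p = 0.492 from edgeR). *C1QB* had 1 count in all in Ctrl and 52 with WNK463 (adjusted p = 1.75e-05 from edgeR), *APOE* 2 and 46 (adjusted p = 5.88e-05 from edgeR), and *VSIG4*, below the filter, 5 and 25. Their part in the changes of the oxidase genes was not tested.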

How the data were processed

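RNA was captured with beads for mRNA and sequenced on an Illumina NovaSeq X Plus. The submitters' processing notes name fastp, Bowtie2, HISAT2, StringTie, RSEM, DESeq2, edgeR and the build GRCh38, without versions or roles. The authors deposited whole-number counts per gene, apparently rounded estimates, and TPM values, which sum to 1000000 per sample. The deposited table also holds the authors' mean TPM of each group, log2 fold changes, p-values and adjusted p-values, which were not used.

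Counts were tested with edgeR 4.0.16 in R 4.3.3 (TMM, default filter, quasi-likelihood, no replicate block). SE was obtained from the size of the log2 change over the root of F. Where 2 rows shared a symbol, the row with more counts was used. DESeq2 1.42.0, limma 3.58.1 on log2(TPM + 1) and log2(TPM + 0.1), total counts, other filters and each sample left out were alternatives. On simulated data with 200 changed genes among 11938 tested, edgeR recovered 198 with 6 false calls. The changed genes were well counted, with log2 changes of at least 1 in size. The simulation therefore does not cover smaller changes, counts as low as those of *CYBB*, or a change of most genes. Replicates differed by more than counting noise (chi-square per degree of freedom of at least 2.64).

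Genes named are the members, all oxidase relatives and partners, up to 4 passing genes per other list by size of change, and 2 nearest patterns per member. Members and lists were chosen with earlier results of these data known. Some genes of the lists are not reported here by name, and 1 of them, from the list of partners, was also left out of the counts.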

Additional observations from a re-analysis of the deposited data

How the results depend on the processing

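The log2 fold changes of *CYBA*, *NCF1* and *NCF4* kept their direction and passed under all 15 alternatives run for each. *CYBC1* kept its direction but did not pass with total counts (-0.10), with limma on log2(TPM + 1) with the TPM filter (-0.060) or without it (-0.060), or on log2(TPM + 0.1) (-0.060). Total counts and TPM lack the TMM factors, which ranged from 0.944 to 0.952 in Ctrl and from 1.05 to 1.06 with WNK463, and gave 63.9% (total counts), 65.2% (limma with either pseudocount) and 67% (limma, no TPM filter) higher genes among those passing, against 50.2% with TMM. *CYBB* had a log2 fold change of -0.22 with limma on log2(TPM + 1) and no filter, where the pseudocount exceeds its TPM. It did not pass there (adjusted p = 0.156 from limma). With TPM + 1 the *CYBB* to *CYBA* ratio turned to 0.16, also because the pseudocount exceeds the TPM of *CYBB*. With each sample left out, the log2 fold changes ranged from -1.74 to -1.05 for *CYBB*, -0.64 to -0.51 for *CYBA*, 1.36 to 1.41 for *NCF1*, 0.21 to 0.26 for *NCF4* and -0.29 to -0.21 for *CYBC1*. The *CYBB* to *CYBA* ratio ranged from -1.11 to -0.14, moved most by Ctrl replicates 1 and 3, the *CYBB* to *CYBC1* ratio from -1.38 to -0.48 and the *NCF4* to *NCF1* ratio from -1.18 to -1.13. Genes passing numbered 8473, and 8026 to 8426 with a sample left out. Deviations from the group means were not shared by samples with equal replicate numbers (correlations of 0.02, -0.01 and -0.05), so the numbers were not taken to pair them. With the replicate block 8398 genes passed, and no call of a member changed. The planned sum of *NCF1* with its copies was not run. All values of *CYBB* rest on few counts, 4 to 20 per library.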

Other observations

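The genes whose profile over the 6 libraries was most like each member were found by the root mean square difference between log2 CPM values centred on their own mean, as a description with no test. Nearest to *NCF1* were *P2RY11*, a receptor for extracellular ATP, with a difference of 0.03, and *ICAM4*, an adhesion protein, with 0.04. Their log2 fold changes were 1.40 and 1.36. Nearest to *CYBA* were *ERAL1*, a GTPase of the mitochondrial ribosome, and *CHID1*, with log2 fold changes of -0.61 and -0.56. *NCF4* lay closest to *INPP4A*, a phosphoinositide phosphatase, and *KLHDC10*, with log2 fold changes of 0.26 and 0.23. *CYBC1* lay closest to *TAGLN2*, an actin-binding protein, and *FAM50A*, with -0.22 and -0.26. For *CYBB* the nearest were *ANTXR1* and *TLCD1*, with larger differences of 0.20 and 0.24, a likeness that rests on few counts. No member was the nearest of another. All samples share the 2 groups, so such likeness mostly follows the difference between them.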
